A study of Mus musculus with 8 samples.

Results

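Mitochondrial ribosomal protein genes are nuclear genes that encode the proteins of the ribosome inside mitochondria. They were taken as the genes of the count matrix whose Ensembl identifier has, in the GENCODE M21 annotation of GRCm38, a protein-coding symbol made of Mrpl or Mrps and a number. This rule found 78 of the 51826 genes counted, of which 49 are named for the large subunit (Mrpl) and 29 for the small subunit (Mrps). The symbols give the subunit with exceptions, since Mrps18a and Mrps30 are known as proteins of the large subunit and Mrps36 as a component of the oxoglutarate dehydrogenase complex.

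The mitochondrial ribosome translates the messenger RNAs of the mitochondrial genome, which encode membrane subunits of the respiratory chain. Its ribosomal RNAs are made inside the organelle, whereas its proteins are encoded in the nucleus, made in the cytosol and imported. In the spleen most cells are resting lymphocytes, which are known to raise mitochondrial protein synthesis when they are activated.

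The study asked how all-trans-retinoic acid (tRA), an active form of vitamin A, changes gene expression in the spleen before lupus is induced. Total splenocytes of Balb/c mice aged 3 months were sequenced, and neither group had been injected with pristane. The 4 tRA mice had been given tRA by mouth every day from weaning, in canola oil as the vehicle, and the 4 control mice, named as controls in the titles of their libraries, had been given the oil alone. The treatment field of the labels gives the dose of 1 mg/kg body weight for all 8 mice, controls included, so the groups were taken from the titles, and the vehicle of the controls from the study's account of this experiment. The study's mice were female, and its splenocyte preparation included lysis of red blood cells. Total counts were 30919272 to 37539631 in the control libraries and 31810417 to 35165876 in the tRA libraries. The 8 B cell markers and the 8 T cell markers examined were each detected, with Cd79a and Lck the most abundant, as a suspension of spleen cells would hold.

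In these splenocytes 77 of the 78 mitochondrial ribosomal protein genes passed the filter on low counts, and Mrpl53 did not. Levels that can be compared between genes are given as counts scaled to library size and transcript length (RPKM), where the length is the median over the protein-coding transcripts of a gene and the level is the mean over the 8 mice. The median level of the 78 genes was 17.4 RPKM, with quartiles of 10.3 and 27.8 RPKM. Large subunit genes had a median level of 18.6 RPKM and small subunit genes one of 13.2 RPKM. Both lay below the median level of 46.9 RPKM of the 93 nuclear-encoded respiratory chain genes and of 533 RPKM of the 88 cytosolic ribosomal protein genes.

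The highest level by this length was that of Mrpl4, a conserved protein at the exit tunnel of the large subunit, at 86.9 ± 8.75 RPKM (SD, n = 8). Mrpl24 followed at 74.7 ± 5.36 RPKM, Mrps21 at 71.2 ± 6.64, Mrpl52 at 61.8 ± 9.30 and Mrpl33 at 60.9 ± 5.82 RPKM. Mrpl4 exceeded Mrpl24 by more than the SD of either, while Mrpl24 and Mrps21, and likewise Mrpl52 and Mrpl33, differed by less than that spread. At the low end stood Mrps25 at 2.71 ± 0.330 RPKM, Mrpl47 at 2.85 ± 0.353, Mrpl35 at 2.94 ± 0.424 and Mrpl19 at 4.43 ± 0.287 RPKM, apart from Mrpl53 at 0.259 ± 0.112 RPKM. Mrps25, Mrpl47 and Mrpl35 did not differ beyond the spread between mice. Part of this order depended on the length used, since levels per transcript and per union of exons agreed across the 78 genes with a rank correlation of 0.661. By exon union Mrpl24 stood at rank 1 and Mrpl4 at rank 5, and Mrpl24 also had more CPM (counts scaled to library size) than Mrpl4 in each mouse, so the order of these 2 genes turns with the measure. Mrpl33 stood at rank 5 by transcript length and at rank 63 by exon union. Some of the genes named here share exon bases with a gene on the opposite strand. The share was 69.8% for Mrps25, 36.0% for Mrpl19 and 24.2% for Mrpl47, and 26.3% for Mrpl24 at the high end. Its effect on the levels was not tested.

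The comparison of tRA with control mice called 0 of the 77 genes tested at a false discovery rate (FDR) under 0.1, by the quasi-likelihood test of edgeR, with Benjamini-Hochberg adjustment over the 16484 genes tested. The same test called 0 of all genes (0.0%), and the lowest FDR of a mitochondrial ribosomal protein gene was 0.757. DESeq2 called 0 of the 77 as well, with a lowest adjusted p of 0.303, while it called 27 genes in the whole table. At an unadjusted p under 0.05 edgeR listed 6 of the 77 genes (7.79%), each of them lower in tRA mice, beside 6.49% of all genes tested, or 3.55% lower and 2.94% higher. DESeq2 also listed 6, of 78 genes with a p, each lower, beside 4.18% of the 29805 genes for which it gave one (2.24% lower). By edgeR the 6 genes became 18 (23.4%) without tRA 1, beside 12.6% of all genes, and 10 (13%) without control 2, beside 6.78%. They became 3 (3.9%) without tRA 3, beside 5.21%, and 3 (3.9%) without tRA 4, beside 3.93%.

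By direction, 58 of the 77 genes had a log2 fold change below 0 (75.3%), beside 49.7% of all genes, and the sign of their median held under each scaling tried. Their median log2 fold change was -0.072, with quartiles of -0.18 and -0.00052, and the median over all genes was 0.0014. Large and small subunit genes had similar medians of -0.078 and -0.070. Single mice moved these values, since the median of the 77 genes was -0.023 without control 3, with 47 genes below 0, -0.13 without tRA 1 and -0.12 without control 2 or without control 4. Single values ran from -0.38 for Mrps28 to 0.15 for Mrps2, with a median standard error (SE) of 0.11, so most of the 77 genes lay within 2 SE of 0. The summed level of the 78 genes was 2001, 1847, 2247 and 1872 CPM in control mice 1 to 4 and 2018, 1886, 1813 and 1764 CPM in tRA mice 1 to 4. Control 3 was highest and tRA 4 lowest, and the 2 groups overlapped, with means of 1992 ± 183 and 1870 ± 111 CPM (SD, n = 4 each). Fewer cells of a type and less RNA per cell cannot be told apart in bulk samples.

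**Figure D1:**
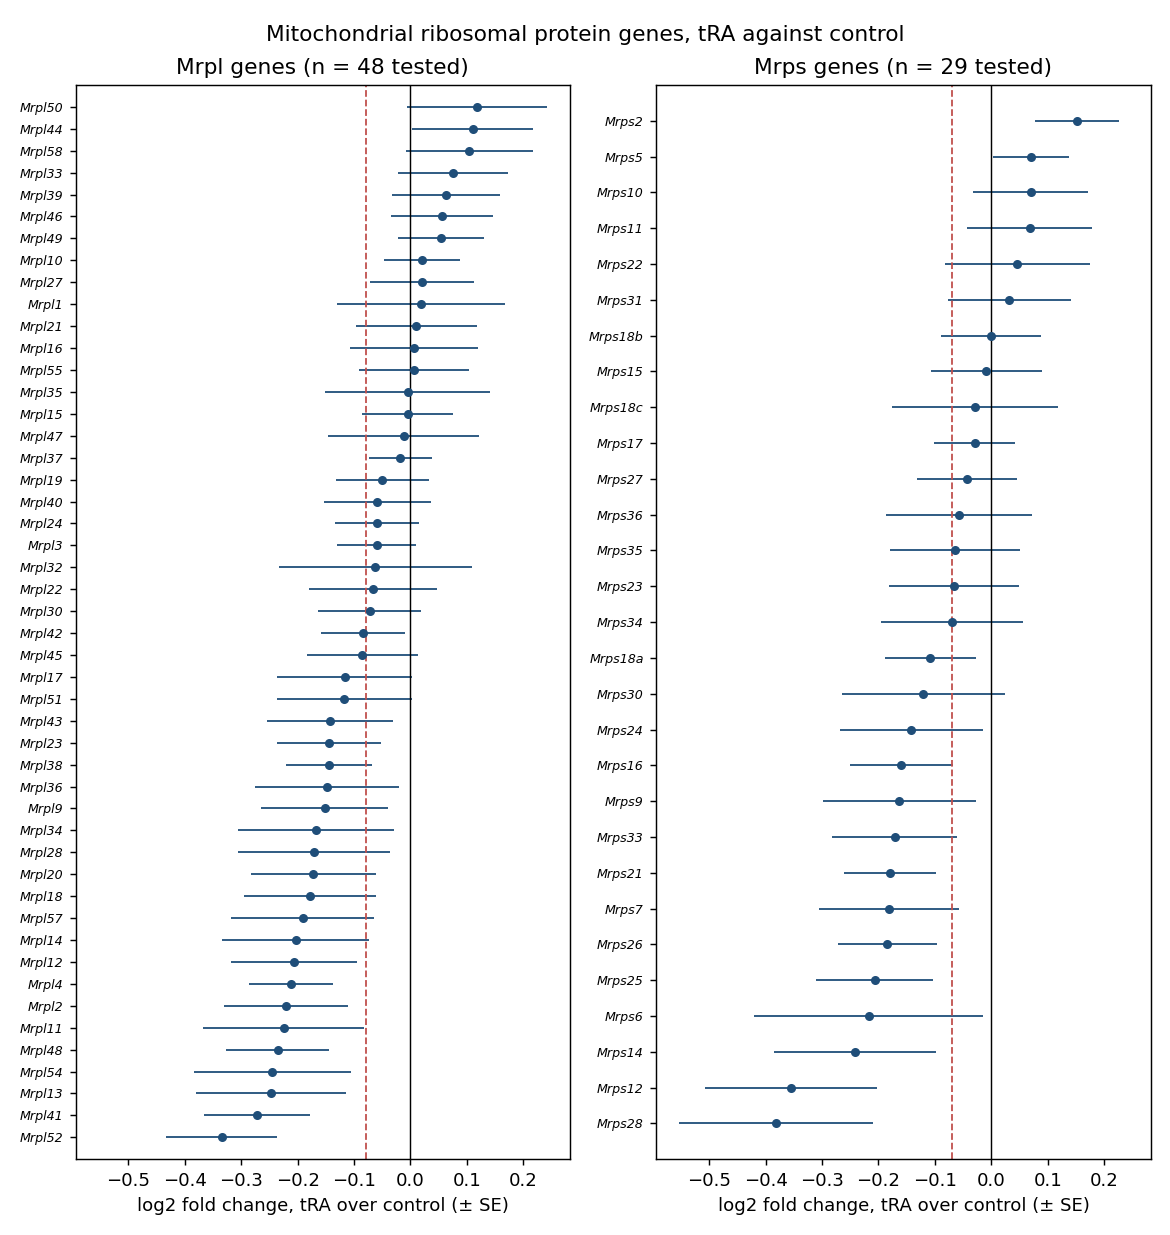
Log2 fold change of each tested mitochondrial ribosomal protein gene, tRA over control, with its standard error, for 48 Mrpl genes (left) and 29 Mrps genes (right) in order of size. Solid lines mark 0 and dashed lines the median of each panel, -0.078 and -0.070, and no gene passed FDR under 0.1.

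The 6 genes at the smallest unadjusted p, for which the FDR was 0.757 each by edgeR with Benjamini-Hochberg adjustment, held 4 of the large and 2 of the small subunit. Mrpl52, a large subunit protein with no bacterial counterpart (ENSMUSG00000010406, chr14:54426909-54429756, GRCm38), was measured at 29.8, 28.7, 30.1 and 26.6 CPM in control mice 1 to 4 and at 27.1, 22.7, 21.3 and 20.2 CPM in tRA mice 1 to 4. The groups overlapped only through tRA 1, which lay above control 4. The mean was 28.8 ± 1.59 CPM in controls and 22.9 ± 3.03 CPM in tRA mice (SD, n = 4 each), a log2 fold change of -0.33 (SE 0.10).

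Mrpl41, likewise found only in mitochondrial ribosomes and also described as a protein linked to cell death (ENSMUSG00000036850, chr2:24974117-24975098), had levels of 24.0, 23.1, 26.2 and 21.1 CPM in the controls and 21.8, 18.01, 19.5 and 18.9 CPM in the tRA mice. Here too a single pair overlapped, tRA 1 above control 4. Its log2 fold change was -0.27 (SE 0.094). Mrpl4, the gene with the highest RPKM by transcript length (ENSMUSG00000003299, chr9:21002738-21008839), stood at 71.5, 77.4, 81.6 and 73.4 CPM in controls and 72.6, 66.2, 61.2 and 62.4 CPM in tRA mice. Among tRA mice the first was again the highest, above control 1, and the other 3 lay below every control. The log2 fold change of Mrpl4 was -0.21 (SE 0.075). Mrpl48, a protein of the central protuberance (ENSMUSG00000030706, chr7:100545751-100608301), was at 17.1, 15.5, 19.4 and 17.4 CPM in controls and 15.6, 14.6, 14.5 and 14.2 CPM in tRA mice. Control 2 and tRA 1 were almost equal and the remaining mice did not overlap. Its log2 fold change was -0.24 (SE 0.091).

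In the small subunit, Mrps12, a conserved protein of the decoding centre (ENSMUSG00000045948, chr7:28739641-28741820), was measured at 19.0, 13.4, 18.8 and 13.7 CPM in controls and at 15.6, 12.2, 11.3 and 11.7 CPM in tRA mice. Controls 1 and 3 were high and controls 2 and 4 were below tRA 1. The log2 fold change was -0.35, with an SE of 0.15 that was among the larger ones of the family. Mrps28 (ENSMUSG00000040269, chr3:8802146-8923918) gave 10.9, 10.1, 12.6 and 9.27 CPM in controls and 11.3, 7.68, 7.19 and 6.75 CPM in tRA mice. Except for tRA 1, which was second only to control 3, the tRA mice lay below every control. Its log2 fold change of -0.38 (SE 0.17) was the largest of the 77 in size and became -0.57 without tRA 1.

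**Figure D2:**
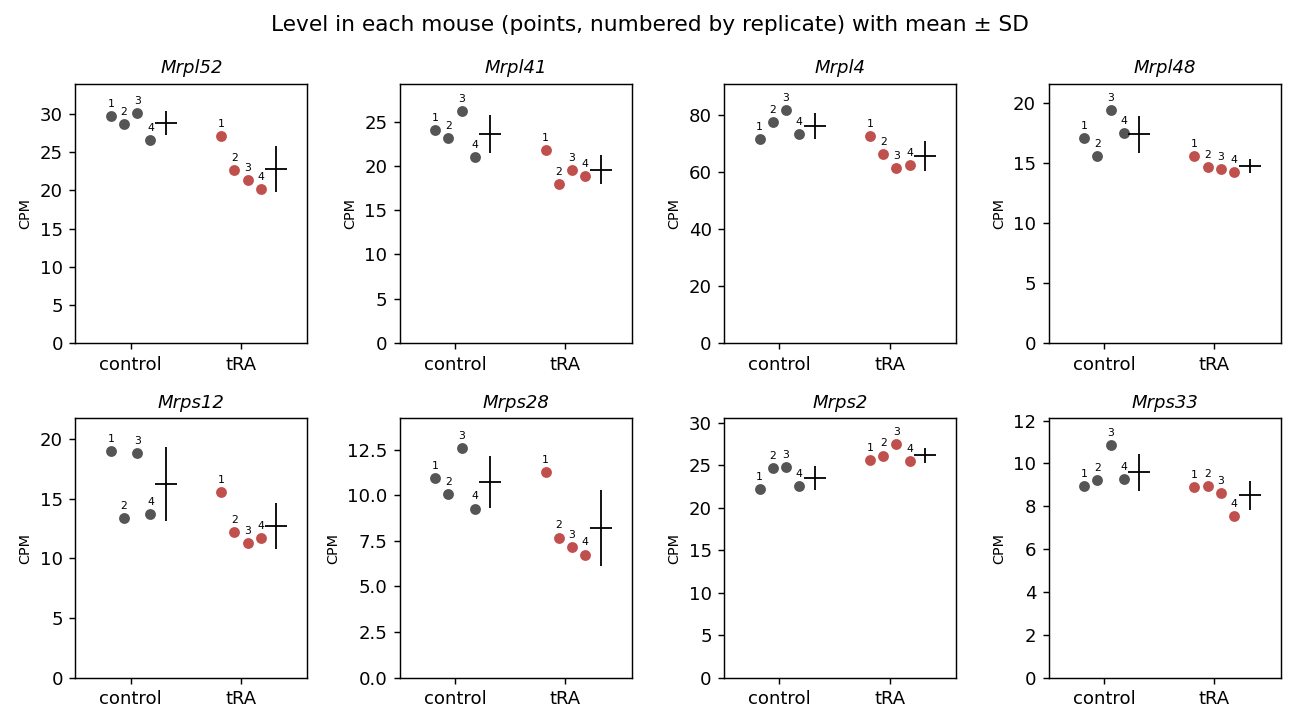
Level in CPM of 8 mitochondrial ribosomal protein genes in each control (grey) and tRA mouse (red), points numbered by replicate, with the mean ± SD of 4 mice as a dash and bar. In Mrpl52, Mrpl41, Mrpl4, Mrpl48, Mrps12 and Mrps28 tRA 1 lies among the controls and the other tRA mice lie lower, whereas Mrps2 and Mrps33 do not overlap between groups.

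Groups did not overlap in 2 of the 77 genes, 1 higher and 1 lower, beside 3.54% of all genes tested, or 1.91% higher and 1.63% lower. With 1 mouse left out, groups separated more often over all genes too. The count was 19 (24.7%) without tRA 1, beside 12.6% of all genes. It was 7 (9.09%) without control 3, 6 of them higher, beside 6.55%, and 6 (7.79%) without control 4, beside 6.34%. It was 5 (6.49%) without control 2, beside 6.58%, and 1 (1.3%) without tRA 3, beside 6.35%. Mrps2, a conserved protein of the small subunit body (ENSMUSG00000035772, chr2:28468066-28471178), was at 22.2, 24.7, 24.9 and 22.5 CPM in controls and 25.6, 26.2, 27.5 and 25.5 CPM in tRA mice. Each tRA mouse exceeded each control, by a narrow margin between control 3 and tRA 4. The log2 fold change of Mrps2 was 0.15 (SE 0.074), with an FDR of 0.776 by edgeR with Benjamini-Hochberg adjustment. Mrps33, a small subunit protein without a bacterial counterpart (ENSMUSG00000029918, chr6:39801804-39810988), was at 8.958, 9.243, 10.84 and 9.274 CPM in controls and 8.918, 8.943, 8.623 and 7.547 CPM in tRA mice. Control 1 and tRA 2 were almost equal, so the separation was slight, and control 3 stood above the other controls. Mrps33 had a log2 fold change of -0.17 (SE 0.11), or -0.11 without control 3. The exact two-sided permutation test gave 0.0286 for both genes, the smallest p that 4 against 4 mice allow, and since the genes were picked for their separation it adds nothing to the share above.

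Besides Mrps2, the 4 genes with the smallest p among the 19 that were higher in tRA mice were Mrps5, Mrpl44, Mrpl50 and Mrpl58. Mrps5, a conserved small subunit protein, had 41.7, 40.0, 43.8 and 41.0 CPM in controls and 42.1, 47.2, 43.2 and 42.2 CPM in tRA mice, a log2 fold change of 0.07 (SE 0.067). Mrpl44, which holds a fold related to ribonuclease III, had 10.2, 9.65, 12.3 and 10.5 CPM in controls and 11.3, 11.3, 12.6 and 10.9 CPM in tRA mice. Mrpl50 was at 15.0, 14.0, 20.4 and 14.2 CPM in controls and 16.8, 18.1, 17.4 and 16.7 CPM in tRA mice, and control 3 was the highest mouse although its group mean was lower. Mrpl58, a peptidyl-tRNA hydrolase that frees stalled chains and also sits in the large subunit, was at 21.5, 20.01, 25.5 and 20.5 CPM in controls and 28.2, 21.8, 21.8 and 22.2 CPM in tRA mice, where tRA 1 stood apart. Log2 fold changes were 0.11 for Mrpl44, 0.12 for Mrpl50 and 0.10 for Mrpl58, each with an SE of about its own size. Leaving out 1 mouse gave 0.064 to 0.18 for Mrpl44, 0.062 to 0.26 for Mrpl50 and 0.0047 (without tRA 1) to 0.18 for Mrpl58, and 0.029 for Mrps5 without tRA 2.

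Some proteins of the family have known roles within or beside the ribosome. Mrpl12, the stalk protein that is also known to bind the mitochondrial RNA polymerase, had 29.4, 25.1, 31.1 and 25.5 CPM in controls and 29.1, 23.3, 21.8 and 22.2 CPM in tRA mice, a log2 fold change of -0.21 (SE 0.11). All tRA mice but tRA 1 lay below every control. Mrpl10, which holds Mrpl12 in the stalk, had a log2 fold change of 0.02 (SE 0.067), a value near 0 that turned below 0 without tRA 2. Mrpl45, which anchors the ribosome at the inner membrane, had a log2 fold change of -0.085, and Mrps27, a pentatricopeptide repeat protein of the small subunit, one of -0.043. Mrps30 had -0.12 with control 3 and tRA 1 the highest mice of their groups, and Mrps36 had -0.057. When 1 mouse was left out, these values ran from -0.155 to -0.032 for Mrpl45, -0.078 to -0.0025 for Mrps27, -0.21 to -0.021 for Mrps30 and -0.0995 to -0.0075 for Mrps36, so their size depended on single mice.

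The 3 paralogues of the bacterial S18 family differ in place, Mrps18a in the large subunit and Mrps18b and Mrps18c in the small one, where Mrps18c takes the bacterial site. Mrps18a was at 28.4, 28.5, 28.6 and 24.7 CPM in controls and 27.9, 25.4, 24.7 and 24.3 CPM in tRA mice, where control 4 was as low as the lower tRA mice. Mrps18b was at 17.6, 15.9, 15.5 and 15.1 CPM in controls and 17.1, 15.2, 16.6 and 15.1 CPM in tRA mice, with a full overlap of the groups. Mrps18c, the least abundant of them by CPM, was at 10.9, 9.74, 11.96 and 8.14 CPM in controls and 11.97, 10.4, 8.92 and 8.71 CPM in tRA mice. Their log2 fold changes were -0.11 (SE 0.08), -0.00052 (SE 0.089) and -0.029 (SE 0.15), each smaller than 2 SE, and the sign for Mrps18b turned with the scaling.

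Mice of 1 group differed from each other by more than the group means of the family did. Control 3 was the highest of the 8 mice for 53 of the 77 genes and the highest control for 63. Among the tRA mice tRA 1 was the highest for 51 genes, and tRA 4 was the lowest for 35. As mean deviation of log2 CPM over the 77 genes, control mice 1 to 4 stood at 0.072, -0.067, 0.22 and -0.047, and tRA mice 1 to 4 at 0.074, -0.035, -0.088 and -0.13, with an SD between mice of 0.11 within groups. Controls 1, 2 and 4 lay inside the range of the tRA mice, and tRA 1 and tRA 2 inside that of the controls. Within groups the 77 genes varied together across mice, with a median pairwise correlation of residuals of 0.53, beside 0.88 for cytosolic ribosomal proteins, 0.65 for nuclear-encoded respiratory chain genes and 0.0023 for the protein-coding genes tested. These correlations are across the same 8 libraries and describe them only. The steadiest genes were Mrpl37 (SD within groups of 0.032 on the log2 scale), Mrpl27 (0.046) and Mrpl10 (0.067), and the most variable Mrps6 (0.33), Mrpl32 (0.30) and Mrps28 (0.27). Mrps6, for example, was at 9.12, 7.44, 10.9 and 9.27 CPM in controls and 11.6, 7.15, 5.88 and 7.03 CPM in tRA mice.

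Counts at these levels depended on single mice. Without tRA 1, 18 of the 77 genes were at an unadjusted p under 0.05 (23.4%), each lower in tRA mice, beside 12.6% of all genes (7.68% lower), and groups did not overlap in 19 genes (24.7%), 18 of them lower, beside 12.6%. At that p, 10 genes stood without control 2 beside 6.78% of all genes, 3 without tRA 3 beside 5.21% and 3 without tRA 4 beside 3.93%. These genes were each lower in tRA mice, while without control 3 there were 4, 3 lower and 1 higher, beside 5.44%. Groups did not overlap in 5 genes without control 2 (4 lower) beside 6.58% of all genes, in 7 without control 3 (1 lower and 6 higher) beside 6.55%, in 6 without control 4 (5 lower) beside 6.34% and in 1 without tRA 3 (higher) beside 6.35%. No gene of the family was called at FDR under 0.1 by edgeR without any of the 8 mice.

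**Figure D3:**
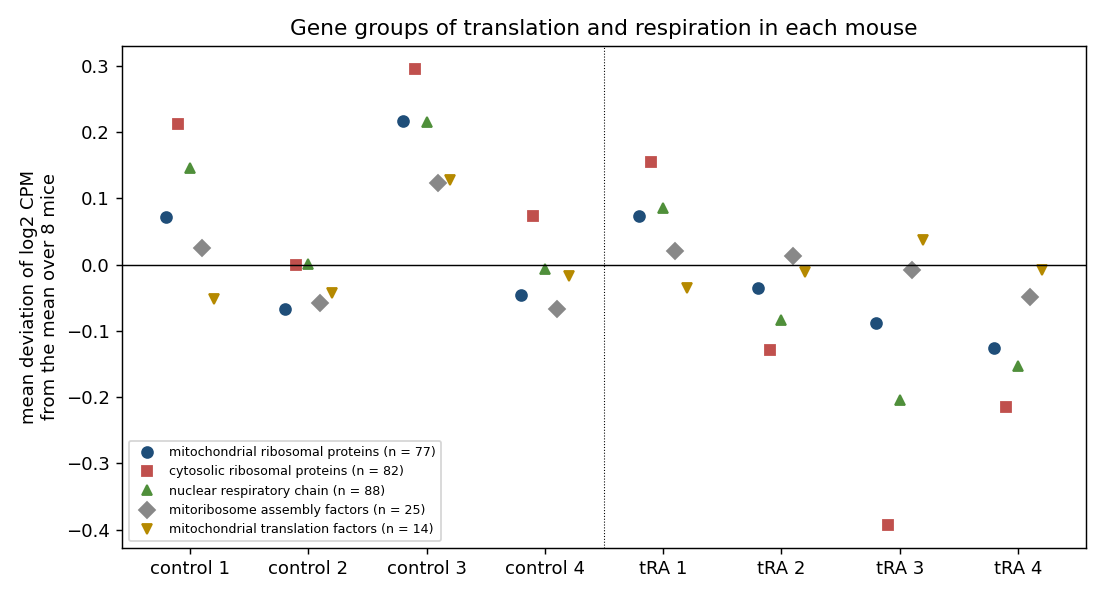
Mean deviation of log2 CPM from the mean over 8 mice, for 5 groups of genes in each control and tRA mouse (each point is the mean over the tested genes of a group). Mitochondrial ribosomal proteins lie between -0.13 (tRA 4) and 0.22 (control 3), and cytosolic ribosomal proteins span a wider range, from -0.39 to 0.30.

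The 5 mitochondrial ribosomal proteins with other names were Dap3, Ptcd3, Chchd1, Aurkaip1 and Gadd45gip1, of which 2 were higher and 3 lower in tRA mice, with a median log2 fold change of -0.078. Ptcd3, the most abundant, had a log2 fold change of 0.037 (SE 0.059) and Aurkaip1 one of -0.28 (SE 0.12). Of the 25 genes for assembly of the mitochondrial ribosome 10 were higher and 15 lower, with a median of -0.022 that turned to 0.0066 when scaled by library size alone. Dhx30, an RNA helicase and the most abundant of them, had -0.014 and Mettl15, which methylates the small subunit RNA, -0.27 (SE 0.16). The 14 mitochondrial translation factors had a median of 0.022, with 9 higher and 5 lower. Lrpprc, which binds mitochondrial messenger RNAs, had 0.036 and Gfm2, an elongation factor of ribosome recycling, 0.14 (SE 0.063). The 17 mitochondrial tRNA synthetases had a median of 0.010 (10 higher, 7 lower), with Lars2 at -0.19 (SE 0.30) and Pars2 at 0.32 (SE 0.14). Under the main scaling, assembly factors, translation factors and synthetases thus had medians nearer to 0 than the ribosomal proteins, a difference that was not tested. With library size alone the translation factors, at 0.053, lay farther from 0 than the ribosomal proteins, at -0.044. The synthetases then stood at 0.040. In these lists 0 genes were called at FDR under 0.1 by edgeR and 0 by DESeq2, and Aurkaip1, Gfm2 and Pars2 were the 3 at an unadjusted p under 0.05 by edgeR, beside 2 by DESeq2.

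For the 9 genes of mitochondrial DNA upkeep and transcription the median log2 fold change was 0.089, with Polg at -0.014 and Mterf2 at 0.16. For the 9 regulators of mitochondrial biogenesis it was 0.013, or 0.029 with library size alone. Among them Myc was at 0.013 (SE 0.20) and Esrra, an orphan nuclear receptor, at -0.27 (SE 0.098). Of the 13 messenger RNAs of the mitochondrial genome 10 passed the filter, 8 were higher and 2 lower, and the median was 0.089. mt-Co1 was the most abundant of them at 23090 CPM in controls and 23300 CPM in tRA mice, and mt-Nd5 had a log2 fold change of 0.33 (SE 0.12). mt-Co2, mt-Co3 and mt-Atp6 stood near 1 CPM (1.09, 1.21 and 1.14 CPM in controls), far below mt-Co1, and genes with near-identical copies in the nucleus are uncertain in such counts. The 2 ribosomal RNAs, mt-Rnr2 and mt-Rnr1, had log2 fold changes of 0.11 (SE 0.20) and -0.13 (SE 0.22). In these 4 lists edgeR and DESeq2 each called 0 genes, and Esrra and mt-Nd5 were at an unadjusted p under 0.05 by edgeR, beside 2 genes by DESeq2.

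Both larger families of the same cell functions had lower medians than the mitochondrial ribosomal proteins. Of 82 cytosolic ribosomal protein genes tested 82 were lower in tRA mice and 37 were at an unadjusted p under 0.05, with a median log2 fold change of -0.28, and Rpl36 had the smallest p (-0.52, SE 0.12) and Rpl4 the highest level (-0.15, SE 0.10). Of 88 nuclear-encoded respiratory chain genes 81 were lower and 26 were at that level, with a median of -0.17, Ndufaf8 having the smallest p (-0.54, SE 0.12) and Atp5b the highest level (-0.096, SE 0.063). This list holds assembly factors such as Ndufaf8 too. With an offset for length (union of exons) and GC content in the fit, the median was -0.20 for the cytosolic family and -0.11 for the respiratory chain genes. In each of the 2 families edgeR called 0 genes at FDR under 0.1 and DESeq2 called 1, and whether the 3 families differed was not tested.

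Markers of other cells and states differed between the same mice. All 10 of 10 markers of neutrophil precursors were lower in tRA mice, 9 at an unadjusted p under 0.05, with a median log2 fold change of -0.86, and their summed level was 555, 702, 741 and 635 CPM in control mice 1 to 4 and 252, 316, 346 and 494 CPM in tRA mice 1 to 4. Ngp was the most abundant (-0.92, SE 0.18) and Camp had the smallest p (-1.23, SE 0.16, FDR 0.135 by edgeR with Benjamini-Hochberg adjustment). All 10 of 10 stress and activation genes were lower as well, 6 at an unadjusted p under 0.05, with a median of -0.64 and a summed level of 16540, 15490, 16990 and 13890 CPM in control mice 1 to 4 and 14390, 12100, 5459 and 7899 CPM in tRA mice 1 to 4. Fos was the most abundant of these and Jun had the smallest p, with log2 fold changes of -0.52 (SE 0.30) and -0.58 (SE 0.15), where Fos was at -0.85 without tRA 1 and at -0.30 without tRA 3. tRA 3 and tRA 4, the mice with the lowest mean level of mitochondrial ribosomal protein genes, were also those with the lowest levels of stress and activation genes. Of both lists edgeR called 0 genes at FDR under 0.1, while DESeq2 called 4 neutrophil precursor markers and 2 stress and activation genes. The part of either list in the values of the mitochondrial ribosomal protein genes was not tested.

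Shorter mitochondrial ribosomal protein genes had lower fold changes. Among the 39 genes with a median coding transcript of at most 1056 bases 33 were lower in tRA mice, with a median log2 fold change of -0.14, and these held all 6 genes at an unadjusted p under 0.05. Among the 38 longer genes 25 were lower, with a median of -0.055. Across the 77 genes the log2 fold change correlated with log2 length at r = 0.257 (rho = 0.288), and across the 13130 protein-coding genes tested at r = 0.200 (rho = 0.255), where genes are not independent replicates. With GC content the values were -0.215 in the family and -0.200 in protein-coding genes. The relation was thus seen over protein-coding genes too. An offset for length and GC content was also tried, in which length was the union of exons and not the coding transcript. With this offset in the fit, 3 genes of the family were at an unadjusted p under 0.05, 2 of them lower, beside 5.54% of all genes. The median log2 fold change of the family was then -0.055. The offset together with the replicate block gave 6 genes, 5 of them lower, beside 6.84%, and a median of -0.054.

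The genes lie on 17 chromosomes, 11 of them on chromosome 11 and 8 on chromosome 17. A feature the selection did not use was the frequency of shared start regions, since 33 of the 78 genes (42.3%) started within 1000 bp of a protein-coding gene on the opposite strand, head to head, beside 15.7% of the protein-coding genes tested and 10.8% of those counted. Mrpl46 and Mrps11 face each other and had log2 fold changes of 0.056 and 0.068. Other partners also serve mitochondria, such as Twnk, the mitochondrial DNA helicase, with a log2 fold change of -0.059 beside -0.14 for Mrpl43. Ndufs6 of respiratory complex I had -0.26 beside -0.15 for Mrpl36, and Sars2, a mitochondrial tRNA synthetase, had -0.041 beside -0.35 for Mrps12. Mrpl49 had 0.054 while Fau, a cytosolic ribosomal protein gene with its start 59 bp away, had -0.39. These pairs are a choice among the 33 genes, made after their values were seen.

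Promoters were read from RefSeq (GRCm38.p6), 250 bases upstream to 50 bases downstream of the start, where 69 of the 78 genes had 75 promoters. Both strands were searched for 4 motifs. The core bound by nuclear respiratory factor NRF1, GCGCA and GCGC with any 1 base between them, was found in 13 of the 69 genes (18.8%) and in 7.45% of the 16522 genes searched. The letters CCGGAAG of the ETS family, to which GABPA belongs, were found in 26 genes (37.7%) and in 13.35% of those searched. The letters AAGATGGC of YY1 were found in 12 genes (17.4%) and in 3.64% of those searched, and TATAAA in 5 genes (7.25%) and in 14.3%. In all 35 genes had the NRF1 or the ETS letters and 4 had both, while 23 had none of the 4. Median log2 fold changes were -0.15 with and -0.059 without the NRF1 letters, and -0.12 with and -0.059 without the ETS letters. They were -0.073 and -0.070 for YY1 and -0.030 and -0.072 for TATAAA, the latter in the other direction, and whether such medians differ was not tested. The genes searched were not limited to those that passed the filter on low counts. No share among the genes tested, or in other gene families, is given beside these. A match is a string of letters and not evidence of binding.

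Stretches of 60 bases are shown for 3 genes with the NRF1 letters, Mrpl12 (chr11:120484531-120484590, plus strand), Mrpl45 (chr11:97315653-97315712, plus strand) and Mrpl17 (chr7:105811102-105811161, minus strand), because theirs are the stretches with these letters that overlap no annotated exon (Mrpl45 has 2, of which the one nearer the start is shown). The letters of 1 match in each stretch are in capitals, 5′ to 3′ on the strand of the gene, in GRCm38.p6.
Mrpl12: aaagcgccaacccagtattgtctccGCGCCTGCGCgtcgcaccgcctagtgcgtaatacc
Mrpl45: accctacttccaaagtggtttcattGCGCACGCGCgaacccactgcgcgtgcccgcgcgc
Mrpl17: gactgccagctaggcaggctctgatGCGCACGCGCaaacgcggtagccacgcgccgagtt
In Mrpl12 the letters are on the opposite strand. The log2 fold changes of these genes were -0.21, -0.085 and -0.12.

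Among genes with the ETS letters in a stretch that overlaps no annotated exon, 4 are shown in the same way, chosen after their values were seen. They are Mrpl52 with the smallest p (chr14:54426835-54426894, plus strand), Mrpl43 beside Twnk (chr19:45006443-45006502, minus strand), Mrpl58 (chr11:115403692-115403751, plus strand) and Mrps22 (chr9:98601680-98601739, minus strand), the last 2 with values above 0.
Mrpl52: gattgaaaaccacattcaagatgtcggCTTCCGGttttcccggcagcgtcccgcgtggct
Mrpl43: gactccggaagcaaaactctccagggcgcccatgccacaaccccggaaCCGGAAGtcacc
Mrpl58: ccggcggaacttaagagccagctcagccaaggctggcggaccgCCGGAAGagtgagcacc
Mrps22: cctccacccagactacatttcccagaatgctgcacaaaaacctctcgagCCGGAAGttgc
In Mrpl52 the letters are on the opposite strand. Mrpl43 has 2 matches, both in the stretch shown, where the one farther from the start is in lower case. The log2 fold changes were -0.33, -0.14, 0.10 and 0.046.

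Some members are uncertain because their reads may be shared. Mrpl53 (ENSMUSG00000030037, chr6:83109040-83109939) had at most 0.353 CPM in any mouse, and 88.0% of its exon bases are shared on the same strand with Gm42688, which had 9.78 CPM. Mrps34 shares 77.8% of its exon bases, mainly with Mapk8ip3 on the opposite strand (266 CPM beside 5.24 CPM of Mrps34), and Mrps25 69.8% with Nr2c2 on the opposite strand (31.7 beside 16.5 CPM). Strand use in the counting was not stated. Annotated pseudogenes exist for Mrps36, Mrpl23 and Mrpl48, and counts were 29 to 42 for Mrpl48-ps, 7 to 22 for Mrpl23-ps1 and at most 3 for the 3 of Mrps36. Mrpl48 itself had 465 to 670 counts, and how many of its reads also match the pseudogene was not tested.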

How the data were processed

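RNA was sequenced from total splenocytes of 8 mice after Illumina TruSeq v2 library preparation. The deposited values used here are raw counts of reads per gene, made by the authors and not normalized. On how the authors made these counts the sources differ. The study's methods name trimming with ea-utils and Btrim, alignment with Bowtie2 and Tophat2 and counting with HTSeq, whereas the submitters' processing notes list STAR 2.5.2b, featureCounts 1.5.1, DESeq2 1.26.0 and GRCm38. No strand setting is stated. A further table of the authors holds their own comparison of the groups (fold changes and p-values) and was not used.

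Identifiers were matched to GENCODE M21, where 51633 of 51826 had an entry. Counts were filtered with filterByExpr (minimum count 10), scaled by TMM and tested with edgeR 4.0.16 (quasi-likelihood test, Benjamini-Hochberg adjustment, FDR under 0.1) without covariates, as tRA against control with 4 mice a group. The procedure was tested on simulated data. CPM values are TMM-scaled, log2 values of single mice have 0.1 CPM added, and RPKM uses the median length of protein-coding transcripts. The SE of a log2 fold change was derived from the edgeR test, as the size of the change divided by the square root of its F statistic. A change in units of its SE thus restates that test. Alternatives were DESeq2 1.42.0, other scalings and filters, protein-coding genes alone, a loess offset for length and GC content (span 0.3), the replicate block, and leaving out each mouse. The length in the offset was that of the exon union, unlike the transcript length used for RPKM. Counts of the libraries of a group were compared in pairs for a library entered more than once, and none was found. The study gives 4 mice a group, so each library was taken as 1 mouse.

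Members and gene lists were chosen with earlier results of these data known. Named are the genes with the 5 smallest p in each direction, the 5 highest and 5 lowest RPKM, those with groups that do not overlap, those that failed the filter, the 3 largest and 3 smallest spreads, those with a particular role, a paralogue, an annotated pseudogene or an overlap over most exon bases, the 4 with a shared start that were most abundant, and of each other list the most abundant gene and the one with the smallest p. The pairs with a shared start, Mrps22, Mrpl17 and others outside this rule were named after their values were seen.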

Additional observations from a re-analysis of the deposited data

Results flagged for a closer look

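In 8 of 78 groups of 4 mice examined, over named mitochondrial ribosomal protein genes and the summed levels of the family and its 2 subunits, 1 mouse stood far from the other 3, measured as its gap to the nearest other mouse divided by the range of the group, above Dixon's critical value. Chance flags about 1 in 20 groups, which is 3.9 of 78, and genes that vary together are not independent of each other. Control 3 was the mouse that stood apart in 5 of these, each time as the highest. In Mrpl24 it had 107 CPM beside 87.7 to 90.3 CPM in the other controls (gap over range 0.872), and in Mrpl9 it had 54.5 CPM beside 42.4 to 44.0 CPM (0.864). In Mrpl50 control 3 stood at 20.4 CPM beside 14.0 to 15.0 CPM (0.846), in Mrps34 at 6.01 CPM beside 5.04 to 5.20 CPM (0.834) and in Mrps33 at 10.8 CPM beside 8.96 to 9.27 CPM (0.831). Control 4 was low in Mrps18a, at 24.7 CPM beside 28.4 to 28.6 CPM (0.939). Among tRA mice, tRA 1 was high in Mrpl58, at 28.2 CPM beside 21.8 to 22.2 CPM (0.923), and tRA 3 low in Mrps25, at 14.2 CPM beside 15.6 to 15.7 CPM (0.963). The cause of these values was not tested.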

How the results depend on the processing

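No mitochondrial ribosomal protein gene was called at FDR under 0.1 under any of 17 alternatives, by edgeR or DESeq2. Among all genes DESeq2 called 27 and edgeR without a filter on low counts 6, and leaving out 1 mouse gave 0 to 3 (3 without tRA 4). The count of 6 genes at an unadjusted p under 0.05 became 3 with the length and GC offset (5.54% of all genes). With the offset and the replicate block it was 6 (6.84% of all genes). It was 3 to 18 when 1 mouse was left out. The count was 18 without tRA 1 (12.6% of all genes) and 10 without control 2 (6.78%). It was 3 without tRA 3 (5.21%) and 3 without tRA 4 (3.93%). The count of 2 genes whose groups did not overlap became 4 with library size alone, for which no share of all genes is given. It was 1 to 19 when 1 mouse was left out. The count was 19 without tRA 1 (12.6% of all genes), 7 without control 3 (6.55%) and 6 without control 4 (6.34%). It was 5 without control 2 (6.58%) and 1 without tRA 3 (6.35%). This count has no value with the replicate block. The number of genes below 0 was 47 to 63 of 77 and the median log2 fold change -0.13 to -0.023 when 1 mouse was left out, and 51 to 58 and -0.080 to -0.044 otherwise. With library size alone the median over all genes was 0.031. Mrpl53 had 3 to 13 counts a mouse, and so low a count limits what this gene can show.

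Deviations of same-numbered mice correlated at 0.157 and 0.26 for replicates 1 and 4, and at -0.023 and -0.014 for replicates 2 and 3. With no correlation shared by all 4, the numbers were not taken as pairs. With the replicate block 0 genes were called in the family and in the whole table, and 7 genes of the family were at an unadjusted p under 0.05, beside 7.28% of all genes, with a median of -0.080. Paired by number, signs turned for Mrpl35 (0.014), Mrpl47 (0.00204), Mrps18b (0.000189) and Myc (-0.022).

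Direction also turned under other settings. With library size alone values were 0.027 for Mrpl35, 0.011 for Mrpl37, 0.021 for Mrpl47, 0.028 for Mrps18b, 0.015 for Dhx30 and 0.016 for Polg. Mrps18b was at 0.00349 by DESeq2, 0.00239 with RLE size factors and 0.00225 without a filter. With the length and GC offset values were 0.065 for Mrps18b, 0.022 for Mrps27, 0.052 for Mrps34, -0.00618 for Ptcd3 and -0.025 for mt-Co1, and with the offset and the replicate block 0.068, 0.024, 0.051 and -0.00689 for the first 4. Leaving out 1 mouse gave -0.014 to 0.056 for Mrpl10, -0.087 to 0.00585 for Mrpl19, -0.088 to 0.00798 for Mrpl24, -0.20 to 0.049 for Mrpl32, -0.10 to 0.088 for Mrpl35, -0.097 to 0.11 for Mrpl47, -0.034 to 0.048 for Mrps18b and -0.13 to 0.052 for Mrps18c. It gave -0.038 to 0.00350 for Dhx30, -0.55 to 0.00133 for Lars2, -0.18 to 0.13 for Myc, -0.12 to 0.22 for mt-Co1, -0.24 to 0.20 for mt-Rnr1, -0.0186 to 0.33 for mt-Rnr2, -0.13 to 0.014 for Lck, -0.088 to 0.17 for Csf1r, -0.25 to 0.053 for Gzma, -0.16 to 0.93 for Hbb-bs and -0.16 to 0.068 for Itgax. Size moved more often than direction. Leaving out 1 mouse moved the log2 fold change by over 1.5 times in 25 of 35 tested genes of the family chosen by the naming rule. The same held for 28 of 44 named genes of other lists. Such a ratio is easily passed where the value from all mice is near 0, as for Mrps18b (-0.00052) and Mrpl35 (-0.0050). Mrps22, Mrpl17 and others named outside that rule are not among the 35. Settings other than a left-out mouse also moved size by over that much. They gave values up to -0.10 for Mrpl12, -0.23 for Mrps12, -0.14 for Mrpl4, -0.070 for Mrps18a, 0.19 for Mrpl44 and 0.097 for Mrpl10. Without control 3 Aurkaip1 was at -0.18, Mettl15 at -0.16 and Mrps25 at -0.13. Pars2 was at 0.20 without tRA 3, Rpl4 at -0.24 without tRA 1 and Lrpprc at 0.022 without control 2. With the length and GC offset Lrpprc was at 0.0036 and Aurkaip1 at -0.18. The cause was not tested.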

Other observations

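Cell type markers other than those given with the mitochondrial ribosomal protein genes describe the same 8 suspensions. B cell markers (Cd79a most abundant) had a median log2 fold change of 0.025 and T cell markers (Lck) one of 0.11, and for both edgeR placed 0 of 8 genes at an unadjusted p under 0.05, DESeq2 0 and 2. NK cell markers (Gzma) had a median of -0.056, macrophage and monocyte markers (Csf1r) -0.0093, which turned to 0.021 with library size alone, and dendritic cell markers (Itgax) -0.15. That scaling also moved the medians of B cell and NK cell markers, to 0.056 and -0.026. The smallest p belonged to Ms4a1 among B cell markers (0.20, SE 0.13), Cd4 among T cell markers (0.18, SE 0.081), Ncr1 among NK cell markers (0.27, SE 0.16), Ly6c2 among those of macrophages and monocytes (-0.23, SE 0.13) and Flt3 among those of dendritic cells (-0.23, SE 0.12). Leaving out 1 mouse moved Ms4a1 to 0.32 without control 1 and 0.10 without control 4, Ncr1 to 0.15 without control 1, and Flt3 to -0.136 without control 4 and -0.149 without tRA 1. Of 7 plasma cell markers 4 were lower in tRA mice, 3 at an unadjusted p under 0.05, and Jchain, which links secreted antibodies, was at 574, 537, 604 and 722 CPM in control mice 1 to 4 and at 367, 541, 428 and 436 CPM in tRA mice 1 to 4. Control 2 and tRA 2 overlapped in Jchain, whose log2 fold change was -0.46 (SE 0.13). Mzb1 had the smallest p of these markers, with 84.7 ± 7.84 CPM in controls and 68.1 ± 4.47 CPM in tRA mice (SD, n = 4 each), groups that did not overlap and a log2 fold change of -0.315 (SE 0.080). Of 6 mature neutrophil markers 4 were lower in tRA mice and 2 higher, with a median log2 fold change of -0.35, and 3 were at an unadjusted p under 0.05 by edgeR, each lower, and 4 by DESeq2. S100a9, the one with the smallest p, was at -0.58 (SE 0.16) and Csf3r at 0.25 (SE 0.23), which became 0.086 without control 1, 0.50 without control 2 and 0.13 without tRA 4.

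Erythroid precursor markers (Hbb-bs most abundant) varied most between mice, with summed levels of 947, 1712, 2559 and 597 CPM in control mice 1 to 4 and of 2405, 748, 3789 and 708 CPM in tRA mice 1 to 4. tRA 3 and control 3 were the highest mice of their groups. Hbb-bt, with the smallest p, had a log2 fold change of 0.80 (SE 0.67), which became 0.050 without tRA 3, 1.40 without control 3 and 0.516 without control 4. Platelet markers (Itga2b) summed to 6.42 to 8.58 CPM, and Pf4, with the smallest p, was under 1 CPM in each mouse, at -0.49 (SE 0.42) or -0.042 without control 3. Of the platelet markers edgeR placed 0 at an unadjusted p under 0.05 and DESeq2 1. Proliferation genes (Pcna) had a median log2 fold change of -0.059, or -0.020 with library size alone. Of these, Mcm3, the only one at an unadjusted p under 0.05 by edgeR, beside 1 by DESeq2, had -0.19 (SE 0.067) and groups that did not overlap. In the lists of these paragraphs 0 genes were called at FDR under 0.1 by edgeR and 0 by DESeq2.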
